A study of Etheostoma caeruleum with 18 samples.

Results

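The rainbow darter, Etheostoma caeruleum, is a small perch-like fish of North American streams, and 159 of its abundant liver genes differed more than 10-fold between individual fish. They were chosen from 302933 assembled genes as those with a mean of at least 50 TPM over 18 livers whose highest TPM plus 1 was more than 10 times the lowest TPM plus 1. TPM is the share of a library's transcripts that belongs to one gene, scaled so that all genes of a library sum to the same total. The 100 genes with the highest mean were left out. Of the 1447 genes that met the mean and lay outside those 100, the 159 were 10.99%.

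The 18 wild-caught fish fell into 3 groups of 6, namely R-venlafaxine fish and S-venlafaxine fish, each exposed at 1 µg/L, and control fish given no venlafaxine. All 3 groups were wild fish of the Grand River in Ontario, kept in the laboratory for 14 days to clear contaminants and then sampled after 14 days of exposure or of control water. Venlafaxine is an antidepressant that blocks the reuptake of serotonin and noradrenaline, and R and S name its mirror-image forms. The labels call the 6 samples of a group biological replicates. They state neither the sex nor the age of the fish, nor which fish shared a tank, so a difference between tanks cannot be told apart from one between groups.

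The liver of a bony fish makes most plasma proteins, clears foreign compounds and, in females that are maturing eggs, makes the yolk precursor vitellogenin. Trinity, whose naming pattern the identifiers follow, builds genes from the reads without a genome. No gene names stand beside these identifiers in the deposited tables. The genes are therefore given by identifier with no function, and the tissue label was not checked against marker genes. In whole liver, fewer cells of one type and less RNA per cell cannot be told apart.

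The choice used the measured range, so the ranges are a description and carry no test. The median ratio of highest to lowest was 37.5, and the widest was 2559.7, in TRINITY_DN50657_c1_g1. Just inside the limit on the ratio lay TRINITY_DN23341_c0_g1 at 10.017, and just outside it TRINITY_DN3522_c1_g1 at 9.85. Just inside the limit on the mean lay TRINITY_DN1338_c1_g1 at 50.1 TPM, while TRINITY_DN848_c5_g1, at a mean of 49.2 TPM, lay just outside. The highest mean of a chosen gene was 1711 TPM, in TRINITY_DN31429_c0_g1. In 32 of the 159 the lowest fish was under 1 TPM, and 14 were listed at 0 in at least 1 fish.

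The 159 genes together held 3.23 ± 0.68% of a library in R-venlafaxine fish, 3.64 ± 0.74% in S-venlafaxine fish and 3.16 ± 0.28% in control fish (SD, n = 6 each). Library totals were 51.7 to 62.4 M estimated counts in R-venlafaxine fish, 47.4 to 51.5 M in S-venlafaxine fish and 43.8 to 65.6 M in control fish. No pair of libraries was identical, and log2(TPM + 1) correlated at 0.868 to 0.92 between any 2 libraries over genes with a mean of at least 1 TPM.

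The wide range was present inside each group. In 102 of the 159 genes the ratio exceeded 10 among the 6 R-venlafaxine fish alone, in 84 among the 6 S-venlafaxine fish and in 96 among the 6 control fish. In 47 genes it did so in all 3 groups, and in 15 in no single group. Group membership held a median of 11.7% of the variance of log2(TPM + 1) over the 159 genes, beside 7.68% over all 1447 abundant genes. The range was taken over all 3 groups together, so the choice favoured genes that differ between groups. The share that groups without any difference would give was not worked out, so these medians do not show a group effect.

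Levels were sorted into kinds by the widest gap between neighbouring fish when the 18 values of log2(TPM + 1) were put in order. A gene was called two-state where that gap was at least 2 log2 units, which is 4-fold on TPM + 1, with at least 3 fish on each side. It was called few-fish where such a gap set only 1 or 2 fish apart, and graded otherwise. By this rule 53 genes were two-state, 12 were few-fish and 94 were graded. The median gap was 3.08 in two-state genes and 1.21 in graded genes. No empty zone separated the kinds, since graded genes reached a gap of 1.98 and two-state genes began at 2.01.

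**Figure D1:**
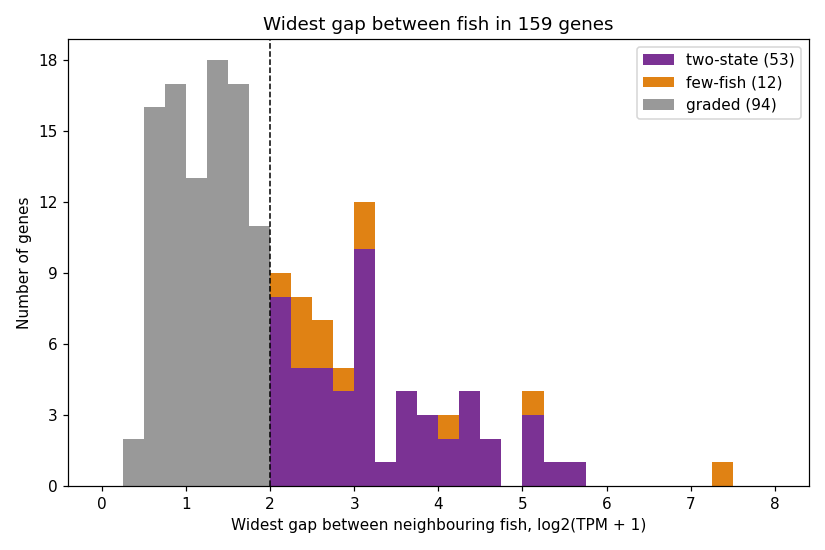
Number of genes (vertical axis) by the widest gap between neighbouring fish in log2(TPM + 1) (horizontal axis), stacked by kind, with the dashed line at the limit of 2. The counts run on across the line, and 1 few-fish gene stands alone at 7.44.

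In the 53 two-state genes the median over genes of the low fish's own median was 3.0 TPM, and that of the high fish was 153 TPM. All low fish were under 10 TPM in 35 genes and under 1 TPM in 2. The high side was itself spread, with a median of 4.06-fold between its lowest and highest fish, and under 4-fold in 26 genes. Of all gene-by-fish values in these 53 genes, 63.5% were on the high side in R-venlafaxine fish, 57.5% in S-venlafaxine fish and 55.7% in control fish. Genes with the same high fish count repeatedly in these shares, so the shares do not compare the groups. For example, 6 genes shared 1 set of high fish, with 6 R-venlafaxine, 6 S-venlafaxine and 3 control fish.

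The two-state genes did not split the fish in one shared way. Among the 53 there were 35 different sets of high fish, of which 28 belonged to a single gene. The other 7 sets were shared by 2 to 6 genes and covered 25 genes. No gene had the exact mirror image of another gene's set.

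The 3 widest gaps among two-state genes outside the co-varying blocks described below show how the sets differ. TRINITY_DN32838_c0_g1 was at 647 TPM in R-venlafaxine fish 5, against 349 and 329 TPM in control fish 1 and 2. The other 15 fish lay at or under 5.45 TPM, including all 6 S-venlafaxine fish, whose highest value was 2.6 TPM. High fish were thus found in R-venlafaxine and control fish, and in no S-venlafaxine fish.

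TRINITY_DN50657_c1_g1, with a mean of 1546 TPM, was high in 11 fish and low in 7. High values were 1864 to 2057 TPM in 3 R-venlafaxine fish, 1745 to 3926 TPM in 4 S-venlafaxine fish and 1625 to 4350 TPM in 4 control fish. Low values were 0.7, 3.02 and 12.6 TPM in R-venlafaxine fish, 32.6 and 44.6 TPM in S-venlafaxine fish, and 28.9 and 36.1 TPM in control fish. Each group held fish of both kinds.

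TRINITY_DN698_c1_g1 was low in only 3 fish. These were R-venlafaxine fish 4, listed at 0, R-venlafaxine fish 6 at 0.32 TPM and control fish 2 at 0.62 TPM. The other fish lay between 56.0 and 90.5 TPM among R-venlafaxine fish, 56.9 and 145.8 TPM among S-venlafaxine fish, and 52.8 and 107 TPM among control fish.

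Few-fish genes set 1 or 2 livers apart. TRINITY_DN50868_c1_g1 was at 1028 TPM in S-venlafaxine fish 4, at 4.93 and 1.42 TPM in S-venlafaxine fish 5 and 6, and listed at 0 in the other 15. TRINITY_DN5683_c0_g1 was at 0.76 TPM in control fish 1, while the other 17 fish lay between 57.1 and 381 TPM. TRINITY_DN16469_c0_g1 was at 11.7 TPM in R-venlafaxine fish 3, while the other 17 lay between 215 and 2918 TPM. In 9 of the 12 few-fish genes the fish set apart were low, and in 3 they were high.

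One few-fish gene, TRINITY_DN2417_c0_g2, was chosen after its values were seen. It is given because its pair was the only one within an assembly component with a Pearson r of -0.7 or lower. A component joins genes whose identifiers differ only in the last number. TRINITY_DN2417_c0_g2 stood at 10094 TPM in R-venlafaxine fish 3 and 8771 TPM in S-venlafaxine fish 2, and between 540.0 and 1078 TPM in the other 16. The gene TRINITY_DN2417_c0_g1 of the same component was lowest in those 2 fish, at 473 and 442 TPM, with 764 to 1414 TPM elsewhere. Over 18 fish the pair correlated at r = -0.793 on log2(TPM + 1) but only -0.106 by rank. By rank the most opposite component pair was TRINITY_DN1714_c1_g1 and TRINITY_DN1714_c1_g2, at -0.672, with r = -0.579.

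Of the 159 genes, 22 had a component partner with a mean of at least 5 TPM, which gave 24 pairs with a median r of 0.288. In 7 pairs r was 0.7 or higher, and in 1 it was -0.7 or lower. Components with more than 1 gene held 42.8% of the 159 genes and 47.8% of the 1288 other abundant genes.

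Graded genes had no gap of 2 log2 units or more between neighbouring fish, though some came close to that limit. TRINITY_DN3046_c0_g1, the most abundant graded gene outside the blocks, ran from 35.3 TPM, with a median of 1063 TPM, to 1806 TPM in R-venlafaxine fish. It ran from 51.1 to 3676 TPM, with a median of 1459 TPM, in S-venlafaxine fish, and from 394 to 3855 TPM, with a median of 1404 TPM, in control fish. The 3 groups overlapped over most of the range.

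TRINITY_DN1714_c1_g1 ran from 71.7 to 1710.3 TPM in R-venlafaxine fish, 139 to 2415 TPM in S-venlafaxine fish and 607 to 2577 TPM in control fish. Its medians were 1215, 1226 and 910 TPM in the same order of groups. Its widest gap was 1.92 log2 units, with 2 fish at or under 139 TPM and the others at 532 TPM or above. TRINITY_DN22017_c3_g1 ran from 404 to 1799 TPM in R-venlafaxine fish, 344 to 3083 TPM in S-venlafaxine fish and 110 to 2121 TPM in control fish, again with overlap of all 3 groups.

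Genes that rise and fall together were looked for by average linkage on Pearson correlations of log2(TPM + 1) over the 18 fish, with groups split at a correlation of 0.7. Blocks of at least 3 genes numbered 12 and held 55 of the 159 genes, while 38 genes fell into 19 pairs and 66 stood alone. Of all 12561 pairs of genes, 168 correlated at 0.7 or higher, 121 of them at 0.9 or higher, and 31 at -0.7 or lower. The median over pairs was -0.009. Blocks were formed on these values, so correlations inside them are descriptions with no test, and all points of a fish come from 1 library.

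**Figure D2:**
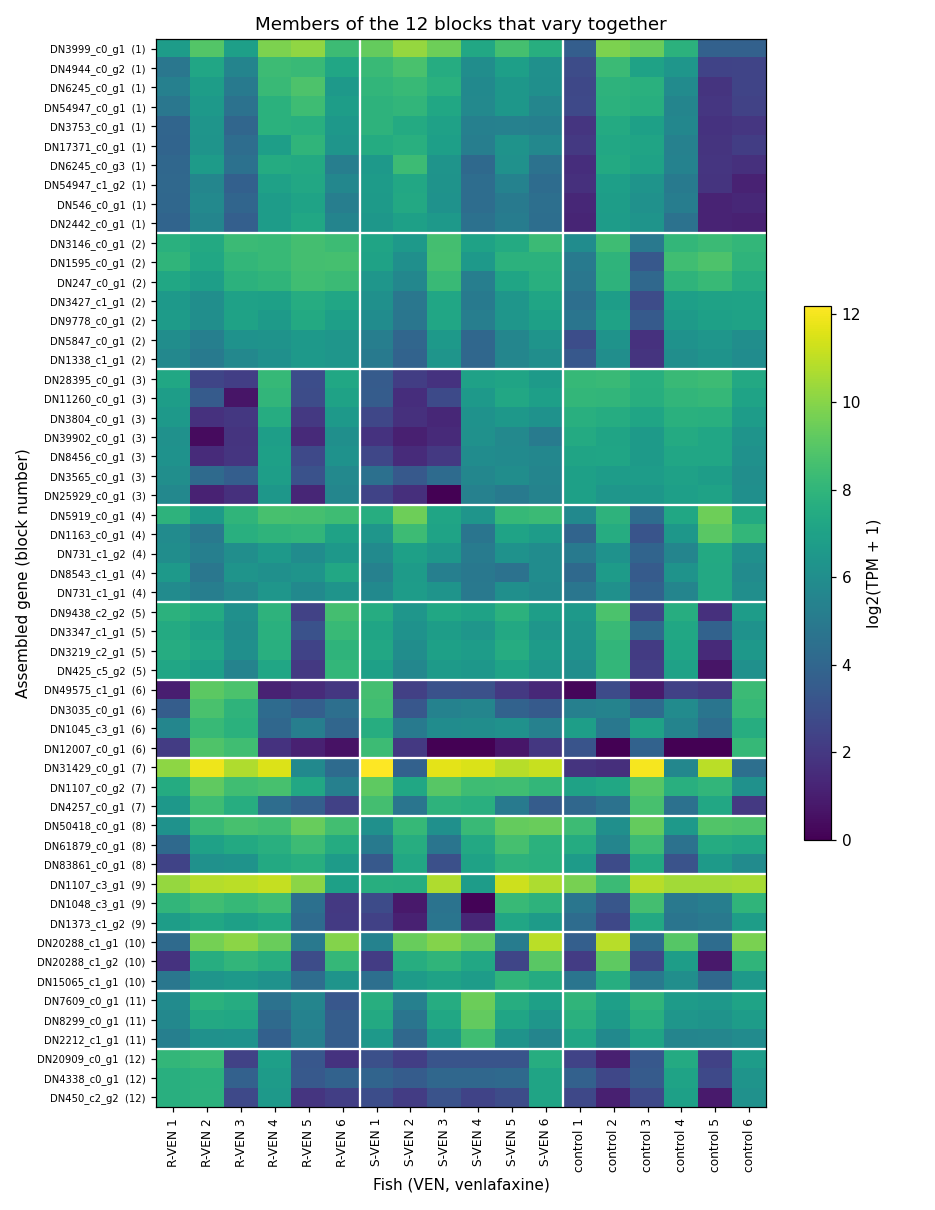
Log2(TPM + 1) (colour) of the 55 block genes (rows, block number in parentheses) in the 18 fish (columns, R-venlafaxine, then S-venlafaxine, then control). Genes of 1 block largely share their dark and bright fish, and blocks differ in which fish those are. The sharing is looser in blocks 6, 7 and 10, with median correlations of 0.805, 0.808 and 0.748. In S-venlafaxine fish 5, for example, TRINITY_DN15065_c1_g1 of block 10 was at 247.7 TPM and TRINITY_DN20288_c1_g2 at 4.91 TPM.

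Correlation inside blocks was also worked out with group means taken away. After each gene was centred on its group means, the median correlation inside the 12 blocks was 0.781 to 0.985, beside 0.748 to 0.985 before. In block 3 the median went from 0.976 to 0.963 and the lowest from 0.941 to 0.901. Library names also carry a letter (A, B or C) that the labels leave unexplained. After centring on that letter the median correlation inside the 12 blocks was 0.751 to 0.986. The mean profiles of blocks correlated with log2 library total at r = -0.498 (block 1) to 0.462 (block 8). With the library share of the 100 most abundant genes, r was -0.583 (block 4) to 0.412 (block 11). Whether library total or composition had a part in block levels was not tested.

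Block 1 held 10 genes, 6 two-state and 4 graded, with a median correlation of 0.985. Its summed level was 289 to 3293 TPM in R-venlafaxine fish, 478 to 3320 TPM in S-venlafaxine fish and 35.4 to 2491 TPM in control fish. The 3 lowest livers were control fish 1, 5 and 6, at 41.4, 35.4 and 39.2 TPM, and every exposed fish lay above them. Library totals were 65.6, 61.3 and 53.3 M estimated counts in these 3, and 43.8, 59.9 and 44.0 M in control fish 2, 3 and 4.

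Its most abundant gene, TRINITY_DN3999_c0_g1, had 104.5, 479, 118, 892, 1138 and 323 TPM in R-venlafaxine fish 1 to 6, and 623, 1207, 716, 155, 387 and 197 TPM in S-venlafaxine fish 1 to 6. In control fish 1 to 6 it had 11.6, 882, 681, 229, 12.7 and 13.0 TPM. The other 3 controls lay inside the range of exposed fish, so the groups overlapped. Its log2 fold change was 0.72 (SE 0.99) for R-venlafaxine against control and 0.80 (SE 0.99) for S-venlafaxine against control, and neither passed (edgeR adjusted p = 1 for both). TRINITY_DN6245_c0_g1, the gene of the block with the widest range, spanned 2.53 TPM in control fish 5 to 437 TPM in R-venlafaxine fish 5. Outside the 159 genes, 26 of 27245 genes with a mean of at least 1 TPM correlated with the block's mean profile at 0.9 or higher. None of these reached a mean of 50 TPM.

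Block 2 held 7 genes, all graded, with a median correlation of 0.979. Its summed level was 630 to 1629 TPM in R-venlafaxine fish, 289 to 1540 TPM in S-venlafaxine fish and 75.4 to 1455 TPM in control fish. Control fish 3 and 1 were lowest, at 75.4 and 181 TPM, and the other 4 controls were at 1076 TPM or above. The most abundant gene, TRINITY_DN3146_c0_g1, had medians of 308 TPM in R-venlafaxine fish, 155 TPM in S-venlafaxine fish and 264 TPM in control fish. TRINITY_DN1595_c0_g1 had the widest range, from 9.32 TPM in control fish 3 to 442 TPM in control fish 5, so its extremes both lay among controls. Of all pairs of blocks, the mean profiles of blocks 2 and 4 correlated most closely, at r = 0.748, but they parted in some fish. S-venlafaxine fish 2 was the highest S-venlafaxine fish of block 4, at 1373 TPM in sum, and the lowest of block 2, at 289 TPM.

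Block 3 held 7 genes, 6 two-state and 1 graded, with a median correlation of 0.976. All 6 control fish were on the high side of its two-state genes, while 3 R-venlafaxine fish and 3 S-venlafaxine fish were high. Its summed level was 26.4 to 1171 TPM in R-venlafaxine fish, 22.4 to 584 TPM in S-venlafaxine fish and 684 to 1345 TPM in control fish. In sum, S-venlafaxine fish and control fish did not overlap, and R-venlafaxine fish spanned both.

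The most abundant gene of block 3 was TRINITY_DN28395_c0_g1. It had 154, 4.81, 3.75, 286, 6.34 and 150.2 TPM in R-venlafaxine fish 1 to 6, and 10.4, 3.65, 2.46, 124, 138 and 97.5 TPM in S-venlafaxine fish 1 to 6. In control fish 1 to 6 it had 284, 307, 202, 306, 328 and 163 TPM. The 6 low fish lay between 2.46 and 10.4 TPM, and the 12 high fish ran from 97.5 TPM in S-venlafaxine fish 6 to 328 TPM in control fish 5. All 3 high S-venlafaxine fish were below the lowest control.

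**Figure D3:**
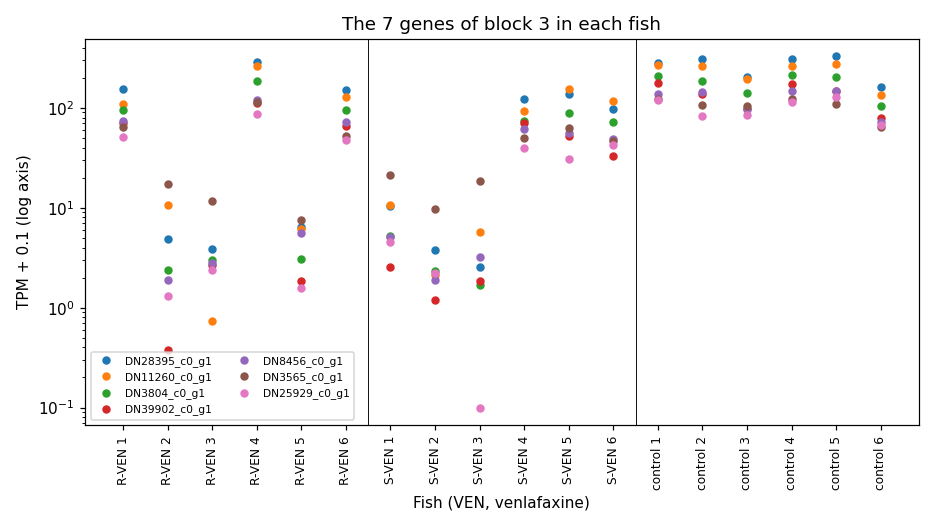
TPM plus 0.1 on a log axis (vertical) of the 7 genes of block 3 in each of the 18 fish (horizontal), 1 colour per gene. The 6 control fish lie above 64 TPM in every gene, and R-venlafaxine fish 2, 3 and 5 and S-venlafaxine fish 1 to 3 lie low in all 7.

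TRINITY_DN11260_c0_g1, the gene of block 3 with the widest range, had 0.63 to 263 TPM in R-venlafaxine fish, 2.02 to 155 TPM in S-venlafaxine fish and 134 to 273 TPM in control fish. Here the highest S-venlafaxine fish reached into the control range. In the other 6 genes of the block no S-venlafaxine fish reached the lowest control. These 6 were the only genes of the 159 whose S-venlafaxine and control values did not overlap. Of the 1447 abundant genes, 8 did not overlap in that comparison (0.553%), all 8 lower in S-venlafaxine fish. Those 8 include the 6 genes of the block. The 6 were grouped for their likeness over the same fish, so they are not 6 separate cases. When TPM was rescaled by TMM, a scaling between libraries, 3 genes in place of 6 did not overlap, so the separation in part of the block was narrow.

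In the fit over all genes the block did not pass. For TRINITY_DN28395_c0_g1, R-venlafaxine against control gave a log2 fold change of -1.44 (SE 1.08) and S-venlafaxine against control gave -2.11 (SE 1.10), with edgeR adjusted p = 1 for both. The first reached -3.10 with limma voom and the second -3.73 with the replicate number as a block, and neither passed under any setting tried. The lowest unadjusted p of the block was 0.0136, for TRINITY_DN3565_c0_g1 in S-venlafaxine against control, at -1.65 on the log2 scale (SE 0.60), and edgeR gave it an adjusted p of 1. That gene, the graded one, lay at 7.4 to 115 TPM (median 35.1) in R-venlafaxine fish, 9.53 to 62.5 TPM (median 33.8) in S-venlafaxine fish and 64.2 to 123 TPM (median 108) in control fish. Its fold change for R-venlafaxine against control was -1.27 (SE 0.59, edgeR unadjusted p = 0.0468, adjusted p = 1). Both exposures were set against the same 6 controls.

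Genes outside the 159 followed block 3 as well. In all, 12 correlated with its mean profile at 0.9 or higher, of which 2 had a mean of at least 50 TPM, and the closest was TRINITY_DN16044_c0_g1 at r = 0.995. That gene had 0.95 to 80.5 TPM in R-venlafaxine fish, 0 to 39.9 TPM in S-venlafaxine fish and 46.1 to 104 TPM in control fish. In this gene and in the next 2 by likeness, TRINITY_DN61868_c0_g1 and TRINITY_DN42531_c0_g1, no S-venlafaxine fish reached the lowest control. They were picked for their likeness to the block, so this is no separate evidence.

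Block 4 held 5 graded genes, with a median correlation of 0.907. Control fish spanned its full range, from 64.4 to 1746 TPM in sum, while R-venlafaxine fish lay between 229.5 and 885 TPM and S-venlafaxine fish between 196 and 1373 TPM. Its most abundant gene, TRINITY_DN5919_c0_g1, was highest in S-venlafaxine fish 2 at 719 TPM and control fish 5 at 714 TPM, and lowest in control fish 3 at 18.6 TPM. TRINITY_DN1163_c0_g1 had the widest range, between 7.89 TPM in control fish 3 and 541 TPM in control fish 5. Of the genes outside the 159, 16 followed the block at 0.9 or higher, and 12 of these had a mean of at least 50 TPM.

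Block 5 held 4 genes, 3 of them two-state, with a median correlation of 0.983. They were low in R-venlafaxine fish 5 and in control fish 3 and 5. TRINITY_DN9438_c2_g2 had 4.27 TPM in that R-venlafaxine fish, against 4.87 and 2.22 TPM in those 2 controls. The other fish had 68.9 to 379 TPM among R-venlafaxine fish, 82.6 to 228 TPM among S-venlafaxine fish and 94.2 to 431 TPM among control fish. TRINITY_DN425_c5_g2, with the widest range of the block, was lowest in control fish 5 at 0.59 TPM. No gene outside the 159 followed this block at 0.9.

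Block 6 held 4 genes, 3 of them two-state, and 4 fish carried most of its transcripts. TRINITY_DN49575_c1_g1 had 559.6 and 428 TPM in R-venlafaxine fish 2 and 3, 375 TPM in S-venlafaxine fish 1 and 319.8 TPM in control fish 6. The other 14 fish lay between 0.16 and 7.34 TPM. Each group thus held at least 1 high fish. The 6 genes outside the 159 that followed this block at 0.9 had a median mean level of 3.04 TPM.

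Block 7 held 3 genes, led by TRINITY_DN31429_c0_g1, the most abundant of the 159. It had 1116, 3746, 1710.4, 2970.3, 54.5 and 18.3 TPM in R-venlafaxine fish 1 to 6, and 4673, 12.7, 3333, 2862, 1879.9 and 2283 TPM in S-venlafaxine fish 1 to 6. In control fish 1 to 6 it had 2.51, 2.14, 4112, 49.8, 1945 and 20.7 TPM. It was on the high side in 4 of 6 R-venlafaxine fish, 5 of 6 S-venlafaxine fish and 2 of 6 control fish, and the groups overlapped fully. Its log2 fold change was 0.68 (SE 1.56) for R-venlafaxine against control and 1.20 (SE 1.58) for S-venlafaxine against control (edgeR adjusted p = 1 for both).

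**Figure D4:**
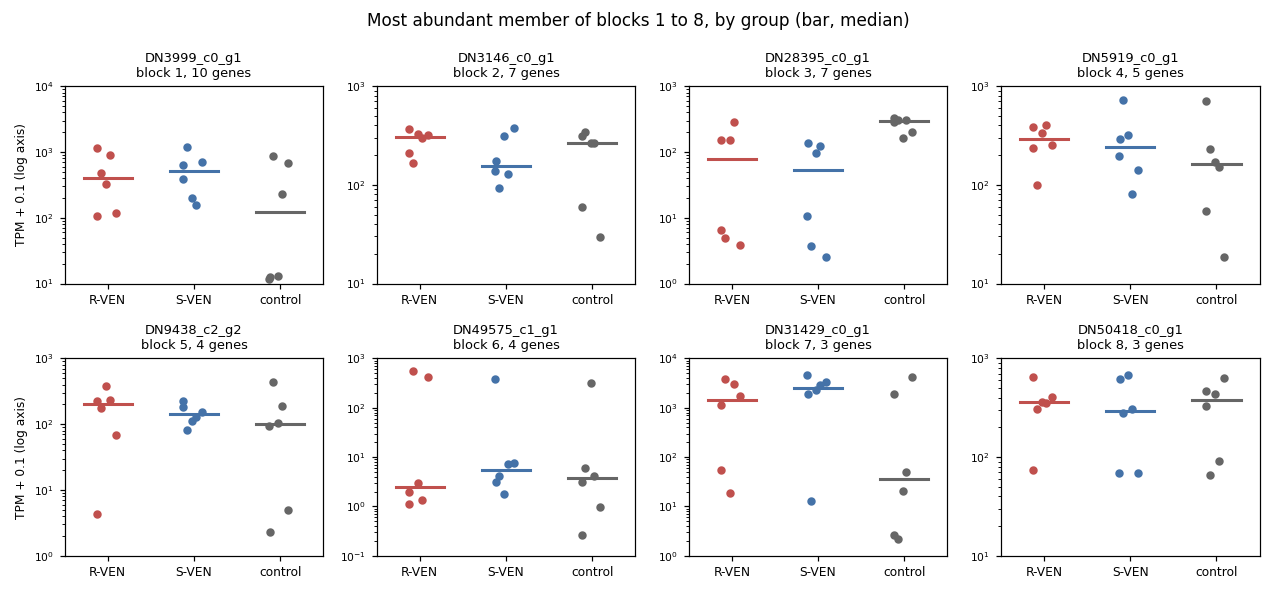
TPM plus 0.1 on a log axis (vertical) of the most abundant gene of blocks 1 to 8 by group (horizontal, with R-VEN and S-VEN for the exposures), 1 point per fish and a bar at the group median. Points fall into upper and lower clusters in several panels, and of the 8 genes only TRINITY_DN28395_c0_g1 of block 3 has a group, S-venlafaxine, lying wholly below the controls.

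Block 8 held 3 genes that were low in R-venlafaxine fish 1, S-venlafaxine fish 1 and 3 and control fish 2 and 4. TRINITY_DN50418_c0_g1 had 73.8 TPM in that R-venlafaxine fish, 68.4 and 68.5 TPM in those 2 S-venlafaxine fish, and 65.9 and 91.3 TPM in those 2 control fish. Its other fish lay between 283 and 683 TPM. TRINITY_DN83861_c0_g1 had the widest range, from 4.42 TPM in R-venlafaxine fish 1 to 239 TPM in S-venlafaxine fish 5.

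Blocks 9 to 12 held 3 genes each. Block 9 summed to 126 to 2756 TPM in R-venlafaxine fish, 109 to 2875 TPM in S-venlafaxine fish and 332 to 2443 TPM in control fish. The sum of block 10 was 48.0 to 1430.4 TPM in R-venlafaxine fish, 66.5 to 2641 TPM in S-venlafaxine fish and 36.3 to 2634 TPM in control fish. Block 11 was highest in S-venlafaxine fish 4, at 1653 TPM, and lowest in R-venlafaxine fish 6, at 31.1 TPM, while controls lay between 214 and 607 TPM. Block 12 was a case of a few high fish. It was at 254 TPM or above in R-venlafaxine fish 1, 2 and 4, in S-venlafaxine fish 6 and in control fish 4 and 6, and lay at or under 31.7 TPM in all others. In these 4 blocks all 3 groups overlapped.

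The most opposite pair of the 159 genes was TRINITY_DN23341_c0_g1 and TRINITY_DN30886_c0_g1, with r = -0.912 and a rank correlation of -0.969 over 18 fish. The pair was picked as the extreme of 12561, so no test was made. Without the 2 fish farthest from the median of the first gene r was -0.882, and after centring on group means it was -0.928. TRINITY_DN23341_c0_g1 was highest in control fish 3, at 154 TPM, where TRINITY_DN30886_c0_g1 was lowest, at 9.98 TPM. In control fish 4 the order was turned, with 14.5 and 116 TPM. Between blocks the most opposite mean profiles were those of blocks 4 and 11, at r = -0.663.

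Each exposure was then set against control, and the exposures against each other, to ask whether levels of these genes differed by group. The choice of genes did not use the group labels, but its range was taken over all 3 groups together. Genes that differ between groups were thus more likely to be chosen. Shares of these genes below are set beside all genes as a description only. One edgeR quasi-likelihood fit covered all 59733 genes that passed the low-count filter, with Benjamini-Hochberg adjustment over all of them. Of the 159 genes 158 passed the filter, the exception being TRINITY_DN50868_c1_g1.

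R-venlafaxine against control had 0 of 158 genes past an edgeR adjusted p of 0.05, as did 0% of all genes tested. Unadjusted, 10 of the 158 had an edgeR p under 0.05, 1 higher and 9 lower in R-venlafaxine fish, which is 6.33% beside 3.24% of all genes tested. That count of 10 was 6 to 13 with 1 library left out, and 6 without control fish 1. DESeq2 called 3 of the 158, beside 0.117% of all genes. These were TRINITY_DN3512_c0_g1 and the pair TRINITY_DN2617_c0_g1 and TRINITY_DN2617_c0_g2, which share a component and correlated at 0.998. The 2 limma fits on counts and on log2(TPM + 1) called 0 in every comparison. The median log2 fold change was 0.05 over the 158 genes and 0.00 over all genes.

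Among genes lower in R-venlafaxine fish, TRINITY_DN2617_c0_g2 had the lowest p. It had 22.2, 33.5, 11.2, 33.3, 51.9 and 172 TPM in R-venlafaxine fish 1 to 6, 142, 84.0, 126, 88.8, 141 and 158 TPM in S-venlafaxine fish 1 to 6, and 458, 261, 335, 123, 142 and 194 TPM in control fish 1 to 6. All R-venlafaxine fish other than fish 6 lay below every S-venlafaxine and control fish. The gene was graded. Its log2 fold change was -2.28 (SE 0.53) for R-venlafaxine against control, lower than the lowest control in 5 of 6 fish (edgeR unadjusted p = 0.000546, adjusted p = 1). Without R-venlafaxine fish 6, the 1 fish of its group inside the control range, it was -3.10, with an edgeR adjusted p of 0.0536. Leaving out any other single library gave an edgeR adjusted p of 0.915 or above. The edgeR adjusted p was 0.139 without the low-count filter, and the limma fits gave adjusted p values of 0.404 to 0.797. DESeq2 gave an adjusted p of 0.008.

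For S-venlafaxine against control its log2 fold change was -1.12 (SE 0.52, edgeR unadjusted p = 0.0448, adjusted p = 1), and for S- against R-venlafaxine it was 1.16 (SE 0.52, edgeR unadjusted p = 0.0387, adjusted p = 1). The 3 comparisons share samples, so these values are not independent. TRINITY_DN2617_c0_g1, of the same component, followed it at r = 0.998, and averaged 82.3 ± 90.5 TPM in R-venlafaxine fish, 170.3 ± 44.3 TPM in S-venlafaxine fish and 359 ± 173 TPM in control fish (SD, n = 6 each). How reads were shared between these 2 genes is not given in the sources used here. Between groups lay 63.9% and 62.8% of the variance of log2(TPM + 1) of the 2 genes, the highest values of the 159.

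Among genes higher in R-venlafaxine fish the lowest p belonged to TRINITY_DN3512_c0_g1, a two-state gene. It had 1025, 1419, 1711, 12.9, 4.73 and 2.99 TPM in R-venlafaxine fish 1 to 6, and 0, 1009, 52.5, 2.46, 4.03 and 1.24 TPM in S-venlafaxine fish 1 to 6. Control fish 1 to 6 had 0.64, 0.21, 0.53, 0.79, 1.39 and 0.17 TPM. All 6 R-venlafaxine fish lay above all 6 control fish, and S-venlafaxine fish overlapped with controls. It was the only one of the 159 genes whose R-venlafaxine and control values did not overlap, where 2 of 1447 abundant genes did not (0.138%), both higher in R-venlafaxine fish.

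Its log2 fold change was 10.13 (SE 2.55) for R-venlafaxine against control (edgeR unadjusted p = 0.00101, adjusted p = 1) and 8.11 (SE 2.35) for S-venlafaxine against control (edgeR unadjusted p = 0.00319, adjusted p = 1). These folds rest on 3 R-venlafaxine fish and 1 S-venlafaxine fish at 1009 TPM or above, and over the other settings they were 5.93 to 10.54 and 2.85 to 8.52. DESeq2 called it in both comparisons (adjusted p = 6.24e-07 and 0.000698). Its component partner TRINITY_DN3512_c0_g2 was present in every fish, at 185.7 to 276 TPM in R-venlafaxine fish, 99.2 to 245 TPM in S-venlafaxine fish and 153 to 256 TPM in control fish.

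S-venlafaxine against control also had 0 of 158 genes past the adjusted threshold in edgeR, beside 0.00167% of all genes tested. Unadjusted, 8 of the 158 had an edgeR p under 0.05, of which 1 was higher and 7 lower in S-venlafaxine fish, which is 5.06% beside 3.23% of all genes. With 1 library left out the count was 5 to 12, and it was 5 without control fish 1. DESeq2 called 2, beside 0.109% of all genes. Over the 158 genes the median log2 fold change was 0.04, against 0.01 over all genes.

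TRINITY_DN32331_c0_g1 had the lowest p among genes lower in S-venlafaxine fish. It had 223, 468, 4.67, 229, 3.07 and 0.91 TPM in R-venlafaxine fish 1 to 6. It had 3.08 TPM in S-venlafaxine fish 1 and was listed at 0 in the other 5, and had 335, 1.21, 0, 212, 218 and 7.09 TPM in control fish 1 to 6. High fish were 3 of 6 R-venlafaxine fish, 0 of 6 S-venlafaxine fish and 3 of 6 control fish, so the S-venlafaxine range still overlapped with both others. Its edgeR unadjusted p was 0.00393 for S-venlafaxine against control and 0.00333 for S- against R-venlafaxine (adjusted p = 1 for both). No fold is given because 5 of the 6 S-venlafaxine fish were listed at 0.

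A similar course was seen in TRINITY_DN14072_c1_g1, which DESeq2 called and which is named after its values were seen. It was listed at 0 in all 6 S-venlafaxine fish. R-venlafaxine fish had 0, 0, 315, 1.71, 417 and 9.9 TPM, and control fish had 235, 207, 1.77, 1.35, 0 and 0 TPM, in order of fish 1 to 6. Only 2 of 6 fish in either of those groups were above 10 TPM. Its edgeR unadjusted p was 0.00748 for S-venlafaxine against control (adjusted p = 1), and the DESeq2 adjusted p was 1.52e-18. That DESeq2 value sets a group listed wholly at 0 against 2 high control fish, so no fold is given here either. In the DESeq2 joint test of 3 groups the lowest adjusted p of the 158 genes was 0.0652.

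**Figure D5:**
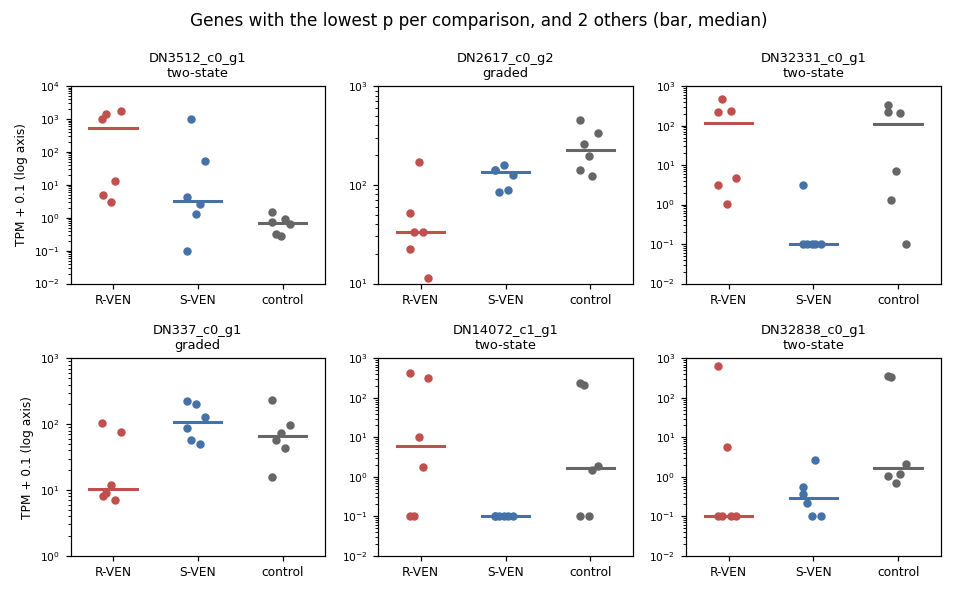
TPM plus 0.1 on a log axis (vertical) by group (horizontal, with R-VEN and S-VEN for the exposures), 1 point per fish and a bar at the group median, for the 4 genes with the lowest p of a comparison and for TRINITY_DN14072_c1_g1 and TRINITY_DN32838_c0_g1. In the 2 graded genes most R-venlafaxine fish lie low, and the 4 two-state genes differ in how many fish of a group are high.

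S- against R-venlafaxine, the mirror-image forms at the same dose and time, had 0 of 158 genes past the adjusted threshold in edgeR, beside 0.00167% of all genes tested. Unadjusted, 7 of the 158 had an edgeR p under 0.05, 4 higher and 3 lower in S-venlafaxine fish, which is 4.43% beside 3.45% of all genes. This count was 2 to 13 with 1 library left out. It was 13, 3 and 2 without R-venlafaxine fish 3, 4 and 5, and 12 without S-venlafaxine fish 1 or 2. DESeq2 called 1, TRINITY_DN14072_c1_g1, beside 0.124% of all genes. The median log2 fold change was 0.07 over the 158 genes and 0.01 over all genes. In none of the 159 genes did S-venlafaxine and R-venlafaxine values fail to overlap, and 0% of the 1447 abundant genes were free of overlap.

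TRINITY_DN337_c0_g1 had the lowest p among genes higher in S-venlafaxine than in R-venlafaxine fish. It had 87.5, 57.6, 129.5, 49.7, 227 and 206 TPM in S-venlafaxine fish 1 to 6, against 103, 8.84, 77.0, 6.94, 7.99 and 11.9 TPM in R-venlafaxine fish 1 to 6. In 4 of the 6 R-venlafaxine fish the level was below every S-venlafaxine fish, and in the other 2 it was inside their range. Control fish had 15.9 to 230.0 TPM. The log2 fold change was 1.80 (SE 0.76, edgeR unadjusted p = 0.0299, adjusted p = 1).

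The joint test of all 3 groups had 0 of 158 genes past the adjusted threshold in edgeR, as did 0% of all genes tested. Unadjusted, 10 had an edgeR p under 0.05, which is 6.33% beside 3.42% of all genes. Leaving out 1 library gave 6 to 14, with 6 without control fish 1. DESeq2 called 0 of the 158 in its joint test, beside 0.072% of all genes, and 12 had an unadjusted DESeq2 p under 0.05.

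Among the 100 most abundant genes, which the choice left out, 10 also passed the ratio of 10. The widest was TRINITY_DN10497_c0_g1, between 2.07 and 6879 TPM. Only TRINITY_DN2592_c0_g1 correlated above 0.7 with the mean profile of a block, namely block 2, at r = 0.808.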

How the data were processed

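Per the labels' protocols, polyA RNA of 18 livers was made into libraries with NEBNext Ultra II Directional. Trimmomatic 0.36, Bowtie2 2.2.7 and RSEM 1.3.1 are named in the submitters' processing notes, without settings. The deposited TPM values are rounded to 0.01 and not scaled between libraries. The deposited estimated counts equalled TPM rescaled to library totals within 0.0055 TPM for 99.977% of values, so they carry no gene-length weight and are not read numbers.

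Levels are TPM as deposited. Counts were rounded to whole numbers, filtered with filterByExpr (minimum count 10, total 15), scaled by TMM and tested in edgeR 4.0.16 (R 4.3.3), quasi-likelihood with robust estimation, 3 groups without covariates, two-sided. Calls needed an adjusted p (Benjamini-Hochberg) below 0.05. The SE beside an edgeR log2 fold change is that fold's size divided by the square root of the test's F statistic. It was derived from the test and is not a separate estimate of precision. DESeq2 1.42.0 and limma 3.58.1 were alternatives. Blocks and level kinds used Python 3.11.15, scipy 1.17.1 and a log2 pseudocount of 1. The scripts were tested on simulated data.

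Genes were named by rule: the most abundant and the widest gene of blocks 1 to 8, the 3 widest two-state, 3 most abundant graded and 3 widest few-fish genes, genes next to each limit, the most opposite pair, and the lowest p per comparison and direction. Other genes were named after their values were seen. Genes and lists were chosen with earlier results of these data known. Deviations from group means correlated at -0.057 to 0.098 between libraries with the same number, and the fish were treated as unpaired.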

Additional observations from a re-analysis of the deposited data

Results flagged for a closer look

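A fish far from the other 5 of its group was looked for in 42 sets of 6 values, namely the summed levels of 12 blocks and 2 measures of the 159 genes per library, and 6 were marked. Chance would mark about 1 in 20 sets of evenly behaved values, and blocks were formed from genes picked for their range. Block 4 summed to 1373 TPM in S-venlafaxine fish 2, where the nearest S-venlafaxine fish had 599 TPM, and to 1746 TPM in control fish 5, with the next control at 662 TPM. Block 6 summed to 1242 TPM in S-venlafaxine fish 1, with the next at 114 TPM, and to 1084 TPM in control fish 6, with the next at 162 TPM. Block 11 summed to 1653 TPM in S-venlafaxine fish 4, with the next at 459.8 TPM. Block 12 summed to 467.0 TPM in S-venlafaxine fish 6, with the next at 31.7 TPM. None of the 158 genes tested passed the edgeR test of the difference between the 2 exposures.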

How the results depend on the processing

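The count of genes called was 0 in each comparison and in the joint test under every alternative run other than DESeq2, including leaving out each of the 18 libraries (0 to 0) and the replicate block (0). DESeq2 called 3 genes in R-venlafaxine against control, 2 in the S-venlafaxine comparison with control and 1 in S- against R-venlafaxine; the cause was not tested. Counts at an unadjusted p moved more. With the replicate block 16, 13 and 7 genes had an unadjusted p under 0.05 in edgeR, beside 10, 8 and 7 without it. Over the other tools, filters, scalings and blocks these counts were 9 to 18, 9 to 24 and 4 to 14. For 6 of 18 libraries the closest deviation, among libraries of the other groups, was that of a same-numbered one. The number that unpaired fish would give was not worked out, so this count does not settle whether the numbers pair fish. The number of two-state genes was 84 with a gap of at least 1, 31 with a gap of at least 3, and 45 to 56 with 1 library left out, so the count depends on where the gap is set. S-venlafaxine and control values did not overlap in 3 genes with TMM-scaled TPM, in place of 6. Within 1.5 times their value were the number of genes chosen and the number in blocks: 138 to 156 genes met the choice with 1 library left out and 114 when the second highest and second lowest fish were used, and blocks held 45 to 72 genes over other correlations and settings. The scaling of TPM and the variance share with a pseudocount of 0.1 (12.0%) were added after seeing the data. Of the named genes 5 were refitted under 30 alternatives each, over 8 gene and comparison pairs, and none changed direction. The deposited counts are rescaled TPM, so the number of reads behind any value is unknown, also for values near the table step of 0.01 TPM. The low-count filter, edgeR and DESeq2 are made for read counts. How far the use of rescaled TPM moved their p-values and calls was not tested.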
